A study of Mus musculus with 6 samples.

Results

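The genes described here are 10 that absorptive cells of the small intestine, the enterocytes, use to take up dietary fat and to send it out again: Apoa1, Apoa4, Apoc3, Apob, Mttp, Fabp1, Fabp2, Dgat1, Dgat2 and Cd36. They were chosen by name, without a threshold on any measured value, and they are 10 of the 31319 genes in the deposited count matrices. The levels come from single-nucleus RNA-seq of intestinal organoids, which are epithelial cultures grown from crypts of the jejunum, here of C57BL/6 mice aged 8 to 12 weeks. There were 6 samples. The 3 QCM samples were grown with medium conditioned by quiescent mouse embryonic fibroblasts, which had been arrested by serum deprivation, and the 3 SCM samples with medium conditioned by senescent ones. Senescence was induced in the study by X-rays or by doxorubicin, and which of them was used for these samples is not given in the sources used here. All 6 samples shared the organoid growth medium and Matrigel, had no engineered allele named in the labels, and saw the fibroblasts' secretions but no fibroblasts, immune cells, vessels or fat meal. The labels do not say whether replicates came from separate mice, so the p-values below measure only the spread between these samples, which may be technical.

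In an enterocyte, long-chain fatty acids enter with the help of Cd36 and are carried through the cytosol by the binding proteins Fabp1 and Fabp2. Dgat1 and Dgat2 join an acyl group to diacylglycerol to make triglyceride. Mttp, the microsomal triglyceride transfer protein, loads this lipid onto Apob as it enters the endoplasmic reticulum, and the particle leaves as a chylomicron that also carries Apoa1, Apoa4 and Apoc3.

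The genes lie on 7 chromosomes of the mouse genome GRCm38 (mm10; coordinates from GENCODE M21), and 3 of them are neighbours. Apoa1 (ENSMUSG00000032083, chr9:46228580-46230466, plus strand), Apoc3 (ENSMUSG00000032081, chr9:46232933-46235636, minus strand) and Apoa4 (ENSMUSG00000032080, chr9:46240696-46243459, plus strand) stand in a row, with 2466 bases between the first pair and 5059 bases between the second. Apoa5 follows 25173 bases after Apoa4. Apob (ENSMUSG00000020609) lies at chr12:7977648-8016835, Mttp (ENSMUSG00000028158) at chr3:138089854-138144968, Fabp1 (ENSMUSG00000054422) at chr6:71199827-71205023 and Fabp2 (ENSMUSG00000023057) at chr3:122895072-122899506. Dgat1 (ENSMUSG00000022555) lies at chr15:76502015-76511953, Dgat2 (ENSMUSG00000030747) at chr7:99153658-99182719 and Cd36 (ENSMUSG00000002944) at chr5:17781690-17888801. The apolipoproteins of chromosome 9 and the binding proteins are short genes, spanning from 1887 bases (Apoa1) to 5197 bases (Fabp1), while Apob spans 39188, Mttp 55115 and Cd36 107112 bases.

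RefSeq's table of promoters (GRCm38.p6, 250 bases before to 50 bases after the start of the transcript) held 7 of the 10 genes. Those of Apoa4, Fabp1, Fabp2 and Mttp are shown because they stand for the 2 patterns between libraries met below: the first 3 genes had 1 or more libraries far above the rest, and the fourth kept a narrower range. Capitals mark matches to TATAAA, the core of a TATA box, or to CAAAGTNCA, a core of the sites bound by HNF4 factors, on either strand. The windows lie at chr9:46240594-46240893 (plus strand), chr6:71199629-71199928 (plus), chr3:122894822-122895121 (plus) and chr3:138143369-138143668 (minus), and each is printed 5′ to 3′ on the gene's strand.
Apoa4: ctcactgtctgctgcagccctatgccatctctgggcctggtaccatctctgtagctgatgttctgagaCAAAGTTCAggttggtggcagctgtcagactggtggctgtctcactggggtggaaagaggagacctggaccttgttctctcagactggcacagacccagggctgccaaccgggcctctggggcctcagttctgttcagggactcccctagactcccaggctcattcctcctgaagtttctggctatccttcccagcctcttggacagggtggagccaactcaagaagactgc
Fabp1: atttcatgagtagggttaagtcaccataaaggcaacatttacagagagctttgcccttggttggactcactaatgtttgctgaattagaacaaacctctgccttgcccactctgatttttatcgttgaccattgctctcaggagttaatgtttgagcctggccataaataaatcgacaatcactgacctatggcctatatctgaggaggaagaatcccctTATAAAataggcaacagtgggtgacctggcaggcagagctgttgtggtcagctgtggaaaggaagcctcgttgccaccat
Fabp2: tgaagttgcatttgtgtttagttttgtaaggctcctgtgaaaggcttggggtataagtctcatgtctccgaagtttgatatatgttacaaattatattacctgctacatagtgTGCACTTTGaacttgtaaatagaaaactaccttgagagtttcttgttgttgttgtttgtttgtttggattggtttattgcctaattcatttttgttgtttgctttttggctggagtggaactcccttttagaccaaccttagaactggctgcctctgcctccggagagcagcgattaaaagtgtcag
Mttp: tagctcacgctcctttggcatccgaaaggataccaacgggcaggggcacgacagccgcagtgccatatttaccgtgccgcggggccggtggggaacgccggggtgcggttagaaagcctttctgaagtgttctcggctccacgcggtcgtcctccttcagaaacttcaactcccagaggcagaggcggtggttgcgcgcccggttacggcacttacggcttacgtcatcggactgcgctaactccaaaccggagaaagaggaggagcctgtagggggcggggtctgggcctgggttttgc
CAAAGTNCA was found in the promoters of Apoa4 (182 bases before the start) and Fabp2 (137 before), and in 1.41% of the 32851 promoters in the table. TATAAA was found in those of Fabp1 (30 before) and Apob (60 before), and in 13.6% of all promoters. Another motif, AGGTCA, the half-site of many nuclear receptors, was found in Fabp1 and Cd36 and in 16.3% of all promoters, and it overlapped neither of the others in these 7 windows. Mttp and Apoa1 held none of the 3 in these windows. The windows of Mttp and Cd36 lay inside the gene spans given above and not at their 5′ ends. Starts elsewhere in those spans were not covered.

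The matrices held 38154 nuclei in 15 numbered clusters. The 6 libraries held from 430 nuclei (SCM replicate 1) to 10833 (SCM replicate 3), with 4071926 to 41035733 unique molecules (UMIs) in all and a median of 1578 to 8260 UMIs per nucleus. The deposited clusters carry no names. Cluster 8 had 8 of the 10 enterocyte markers, such as Alpi, Sis and Slc5a1, at least 2-fold above the other nuclei, and is called enterocyte-like. Cluster 7 had 4 of 6 fetal markers (Clu, Anxa1, Ly6a, Anxa3) and is called fetal-like, clusters 9 and 10 had 9 and 6 of the 9 enteroendocrine markers, and cluster 11 had 4 of 6 tuft markers. Cluster 7 also had the goblet markers Clca1 and Zg16 and the tuft marker Avil past this limit, and cluster 9 the tuft marker Dclk1. Cluster 1 had 3 enterocyte, 3 Paneth, 2 goblet and 1 stem markers past the same limit, and keeps its number. Apoc3, Apoa4 and the Paneth gene Defa17 were among its 10 leading genes. All these marker folds used UMIs pooled over the 6 libraries, which differed in their mix. QCM replicate 1, with the most UMIs, had 43.2% of its nuclei in cluster 1, against 13.7% to 21.9% in the others. Fibroblast and immune markers were at most 2.41 counts per 1000000 UMIs (CPM) in sum in any library, and of the 3 hepatocyte markers in the files Alb was at most 1.97 CPM, while Ttr had 58.0 to 153 CPM and Cps1 528.5 to 693 CPM in every library.

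Both replicate 1 libraries stood apart from the others. QCM replicate 1 had the most UMIs per nucleus and 14.2% of its UMIs on ribosomal protein genes, against 2.64% to 10.3% elsewhere. Its summed Paneth markers were at 2633 CPM, against 335 to 630 CPM elsewhere. Goblet markers were at 1329 CPM against 384 to 776, and enterocyte markers at 2410 CPM against 650 to 1574. Enteroendocrine, tuft, stem and fetal markers were not highest in it. QCM replicate 1 and SCM replicate 1 shared 175 cell barcodes, which were 40.7% of the nuclei of SCM replicate 1, while no other pair of libraries shared more than 36. Of the shared barcodes, 40 carried the same cluster number in both libraries, and the median correlation of their profiles was 0.0041. The barcodes of both replicate 1 libraries began with 48 different runs of 7 bases, and those of the other 4 libraries with 959 or 960. Results are therefore also given for replicates 2 and 3 alone.

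The first question was how far each gene was tied to a library and how far to a cluster. Between libraries the genes fell into 2 patterns. The chylomicron surface proteins and the fatty acid binding proteins were 5.30 to 28.9 times as high in QCM replicate 1 as in the median of the other 5 libraries and were found in all of its clusters, whereas Mttp, Dgat1 and Dgat2 were 1.02 to 1.55 times as high there. By cluster the split was not the same throughout. Apoa1, Apoa4, Mttp, Dgat1 and Dgat2 were highest in the enterocyte-like cluster 8 in at least 5 of 6 libraries. Apoc3, Fabp1 and Fabp2 were highest there in 3, 3 and 2 libraries. Between clusters 1 and 0 the split was close to that between libraries. The surface and binding proteins were higher in cluster 1 in every library compared, and Mttp, Dgat1 and Dgat2 were not. Against clusters 9 to 11 this held for Apoc3, Fabp1 and Fabp2 but not for Apoa1 and Apoa4. Apob differed from both patterns, with high summed levels in cluster 8 and in the fetal-like cluster 7. In cluster 7, and in cluster 8 of some libraries, few nuclei held many of its UMIs.

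Apoa4, which activates lecithin-cholesterol acyltransferase and coats chylomicrons, had 703, 26.3 and 67.9 CPM in QCM replicates 1, 2 and 3 and 25.8, 44.5 and 54.0 CPM in SCM replicates 1, 2 and 3, over all nuclei of a library. Apoa1, the main protein of high-density lipoprotein, had 468.5, 24.7 and 53.1 CPM in QCM and 27.3, 69.5 and 43.7 CPM in SCM. Apoc3, an inhibitor of lipoprotein lipase, had 113, 3.91 and 15.2 CPM in QCM and 2.95, 2.89 and 8.17 CPM in SCM. In each of the 3 genes QCM replicate 1 was the single high library, at 6.74 to 10.4 times the next highest, and QCM replicate 2 lay below every SCM library in Apoa1 and among them in Apoa4 and Apoc3. QCM replicate 3 lay above every SCM library in Apoa4 and Apoc3 and among them in Apoa1.

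Fabp1, the liver-type fatty acid binding protein, had 1609, 173 and 1021 CPM in QCM and 55.8, 158 and 617 CPM in SCM. Replicate 3 was high and replicate 2 low in both media, so QCM replicate 1 was not alone, at 1.58 times the level of QCM replicate 3. Fabp2, the intestinal type, had 624.5, 118 and 149.5 CPM in QCM and 62.6, 73.0 and 133.5 CPM in SCM. The other 5 libraries held Fabp2 within 62.6 to 149.5 CPM, and QCM replicate 1 was 4.18 times the highest of them.

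Mttp had 227, 165 and 164 CPM in QCM and 96.5, 145.5 and 160 CPM in SCM. Dgat1, the acyltransferase that makes most of the triglyceride for chylomicrons, had 102, 106 and 122 CPM in QCM and 86.2, 82.5 and 100.5 CPM in SCM. These were the 2 genes whose media did not overlap, with every QCM library above every SCM library, although the lowest QCM library was close to the highest SCM library in both. Of all genes tested, 2.09% had every QCM library above every SCM library, and 7.08% did not overlap in either direction. Dgat2, the second triglyceride-making enzyme, had 35.1, 22.1 and 26.2 CPM in QCM and 22.6, 32.1 and 20.2 CPM in SCM, and its media overlapped.

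Apob had 351, 169 and 161 CPM in QCM and 201, 515 and 206 CPM in SCM, so that SCM replicate 2 was its highest library. Cd36 was near the limit of detection, with 149, 7 and 32 UMIs in the QCM libraries and 3, 28 and 12 UMIs in the SCM libraries. With so few UMIs its levels are given as counts, and the media overlapped.

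**Figure D1:**
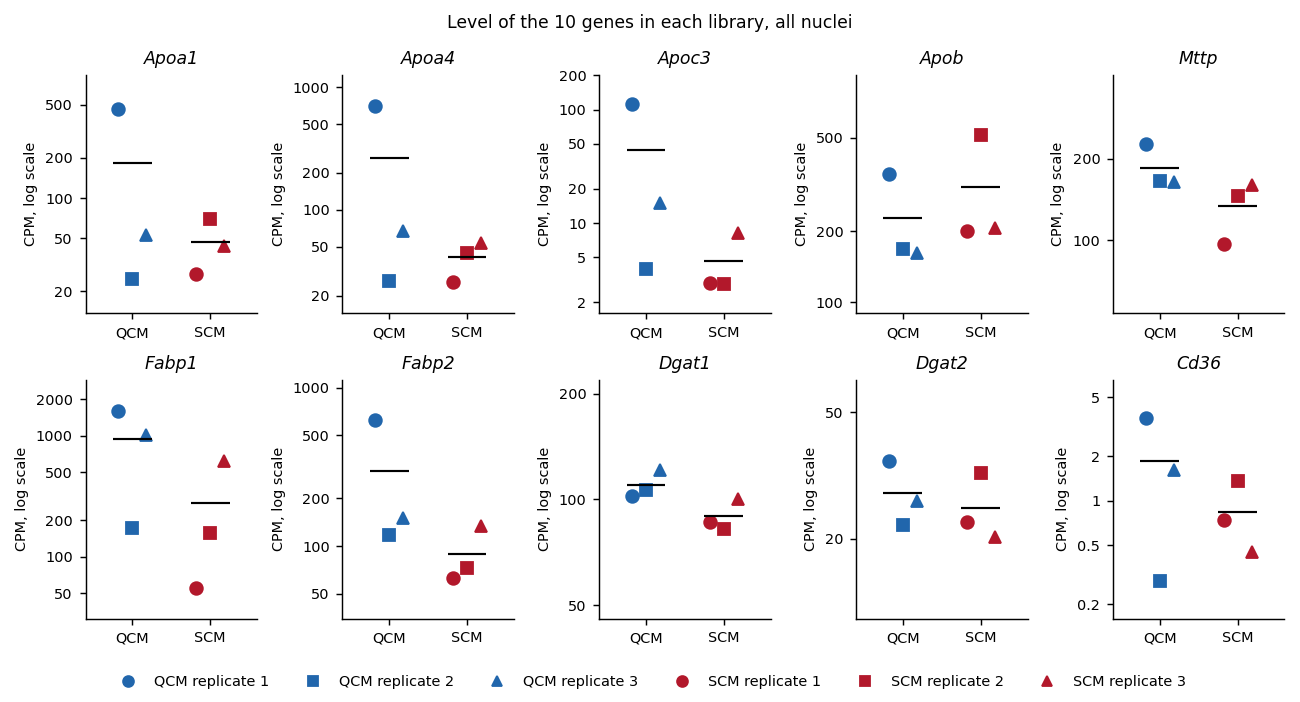
CPM on a log axis for each of the 10 genes over all nuclei, with 1 point per library (circle, square and triangle for replicates 1, 2 and 3) and a line at the mean of the 3 libraries of each medium. QCM replicate 1 (blue circle) was the highest library in 8 of the 10 genes, at 703 CPM of Apoa4 against at most 67.9 CPM elsewhere, while Dgat1 stayed between 82.5 and 122 CPM in all 6.

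Within QCM replicate 1, UMIs of most of the genes were not restricted to a cell type, long genes included. A UMI of Apoa4 was found in 114 of the 114 nuclei of the enteroendocrine-like and tuft-like clusters 9 to 11 (Wilson 95% interval from 96.7%, counting error only), and in 98.9% of the 187 nuclei of cluster 8, at median depths of 9106 and 11310 UMIs. Fabp1 had a UMI in all 3791 nuclei of this library. In clusters 9 to 11 a UMI of Apob was in 92.1% of nuclei, of Mttp in 84.2%, of Apoc3 in 63.2% and of Dgat1 in 61.4%. Enteroendocrine and tuft cells are not known to make chylomicrons, and clusters 9 to 11 are used below as the comparison. Whether the UMIs arose in the nuclei they were counted in was not tested. For any of the genes, a share of nuclei at or below that of clusters 9 to 11 is not read here as expression.

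Pairs of these genes differed in how even their proportion was across the clusters of QCM replicate 1. There were 0.724 UMIs of Apoa1 per UMI of Apoa4 in cluster 8, 0.649 in cluster 1 and 0.677 in clusters 9 to 11, with a range of 0.557 to 0.816 over the 15 clusters. Fabp2 per Fabp1 ran from 0.337 to 0.418 over the same clusters, Apoc3 per Apoa4 from 0.116 to 0.237, and Apoa4 per Fabp1 from 0.344 to 0.572 with cluster 8 the highest. Mttp per Fabp1 ran from 0.0997 to 0.433, at 0.299 in cluster 8, 0.106 in cluster 1 and 0.152 in clusters 9 to 11. What part free RNA had in these levels was not tested.

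After each nucleus was thinned to 1000 UMIs, which left out 0 nuclei of QCM replicate 1 and 106 to 1876 in each of the other 5 libraries, the share of nuclei with an Apoa4 UMI in QCM replicate 1 was 57.8% in cluster 8 and 47.4% in clusters 9 to 11. In SCM replicate 2 it was 16.7% and 2.65%, and in QCM replicate 2 it was 5.73% and 2.76%. Cluster 8 had the larger thinned share in all 6 libraries, with a median of 12.0% against 3.44%. Before thinning it had the larger share in 5 of 6 libraries (median 26.4% against 9.96%).

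Levels by cluster are a description, because the deposited clusters were built from these same counts. Cluster 8 had the highest median level of 6 of the 10 genes and the second highest of the other 4, after cluster 7 for Apob and after cluster 13 for Apoc3, Fabp1 and Fabp2. These orders pool different libraries: cluster 13 had 10 nuclei or more in 4 of them, without SCM replicates 1 and 2, and was the highest cluster in 0 libraries for Apoc3 and Fabp1 and in 2 for Fabp2. Cluster 8 was highest in 3, 3 and 2 libraries for these genes, and cluster 1 in 2, 3 and 2. In 3 genes, Apoa1, Mttp and Dgat1, it was the highest cluster in each of the 6 libraries. Relative to clusters 9 to 11 of the same library, Mttp was 2.46 to 10.7 times as high in cluster 8 (median 3.05, 6 libraries), Dgat1 1.48 to 3.78 times (median 1.99) and Dgat2 1.45 to 3.29 times (median 2.41, 5 libraries with more than 3 UMIs in both).

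Mttp in cluster 8 had 548, 446 and 342 CPM in QCM and 240, 939 and 413 CPM in SCM, a mean of 488 ± 244 (SD, n = 6). The next cluster in the order of medians was cluster 5, with 203 ± 42.2 CPM (SD, n = 6), and its highest library, at 239.6 CPM, lay just under the lowest of cluster 8, at 240.2 CPM, which was SCM replicate 1 with 11 nuclei. In cluster 1 Mttp had 151 ± 46.9 CPM and in the fetal-like cluster 7 it had 111 ± 37.6 CPM, the lowest median of all 15. Those of the remaining clusters lay between 112.5 and 196 CPM and were not separated beyond their spread.

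Dgat1 followed the same order at the top, with 219.5 ± 32.7 CPM in cluster 8, 125 ± 16.3 CPM in cluster 5 and 73.7 ± 21.4 CPM in cluster 7. Over 70 sums of 30 or more nuclei from 1 library and 1 cluster, which share libraries and depth, Mttp and Dgat1 had a Pearson correlation of 0.74 on the log2 scale, and 0.77 over the 57 sums without QCM replicate 1. Dgat2 had 56.4 ± 17.7 CPM in cluster 8 and 38.2 ± 18.7 CPM in cluster 7, which overlapped. Cd36, the fatty acid receptor, had 27, 1 and 3 UMIs in cluster 8 of QCM and 2, 9 and 4 in that of SCM, and in clusters 9 to 11 of QCM replicate 2 a UMI was seen in 0 of 258 nuclei. That allows a share of up to 1.16% of nuclei with a UMI and sets no limit on expression, since cluster 8 of the same library had 1 UMI in 253 nuclei.

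**Figure D2:**
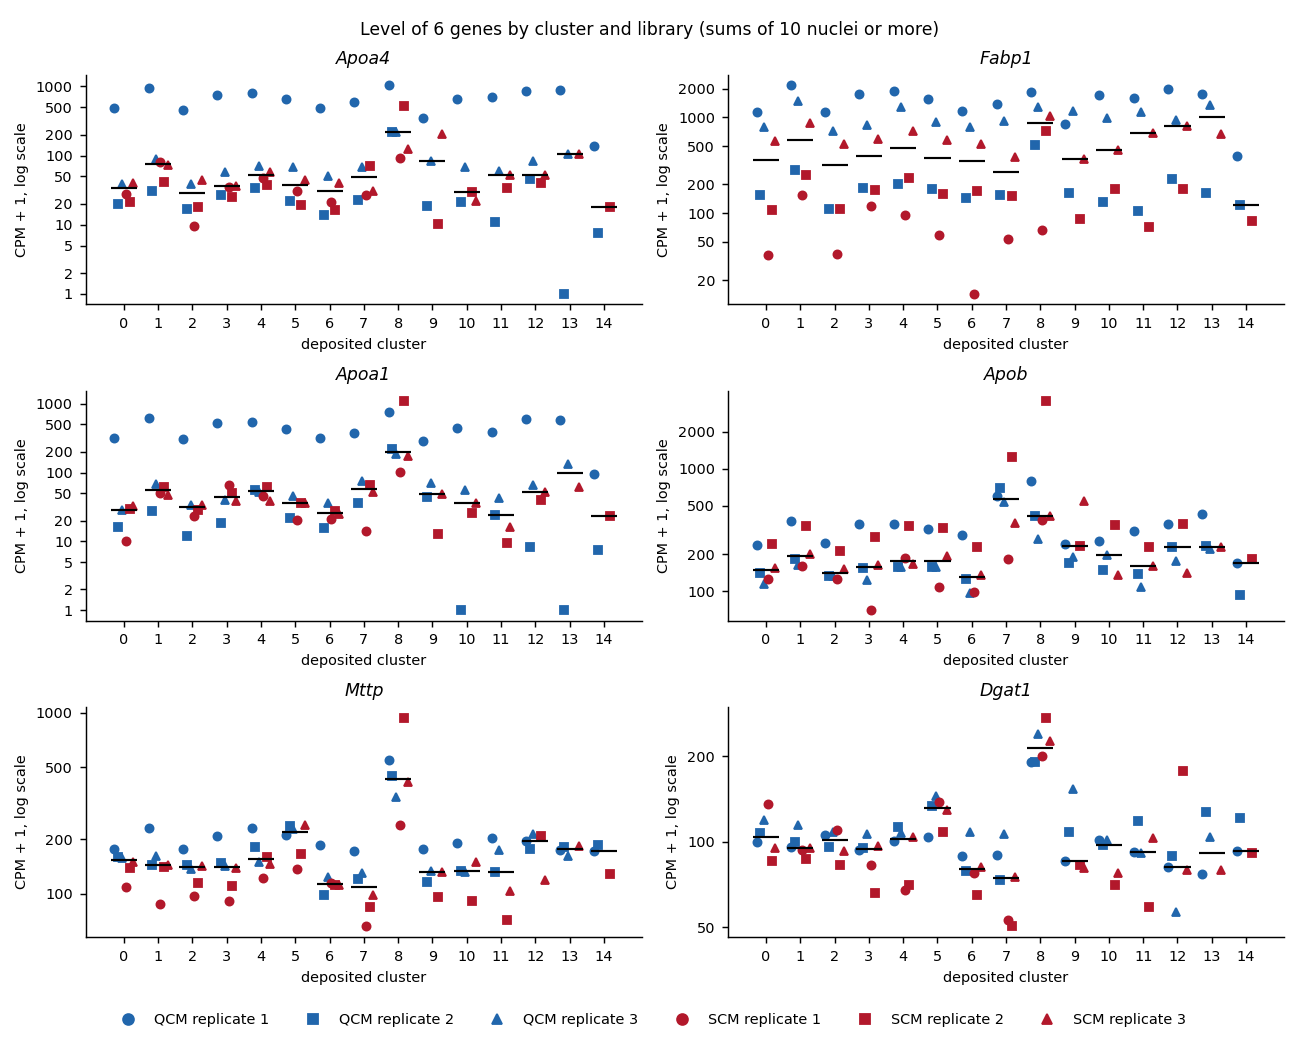
CPM plus 1 on a log axis in the 15 deposited clusters for 6 of the genes, with 1 point per library where it had 10 nuclei or more of the cluster and a line at the median. Mttp and Dgat1 were highest in cluster 8 in every library, Apob had its highest medians in clusters 7 and 8 but was highest in cluster 9 in SCM replicate 3 (539.7 CPM, or 201 CPM without 1 nucleus), while Apoa4 and Fabp1 differed more between libraries than between clusters.

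Apoa1 in cluster 8 had 759, 216 and 182 CPM in QCM and 99.4, 1084 and 174 CPM in SCM, and 2.22 to 76.2 times the level of clusters 9 to 11 (median 4.28, 5 libraries). Apoa4 in cluster 8 had 1048, 220 and 216 CPM in QCM and 91.1, 522 and 123 CPM in SCM. Its ratio to clusters 9 to 11 ran from 0.853 to 25.1 with a median of 2.90. The one ratio under 1 came from SCM replicate 3, where 1 nucleus of cluster 9 carried 150 of that cluster's 176 Apoa4 UMIs.

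Single nuclei weighed on cluster 8 as well. In QCM replicate 2, 1 nucleus held 146 of the 184 Apoa1 UMIs of the cluster (79.3%) and 70.6% of those of Apoa4, and without it the levels were 46.2 and 66.9 CPM. In SCM replicate 2, 4 of 77 nuclei held at least 50% of the UMIs of Apoa1, and 4 did so for Apoa4. At least 50% of the Mttp UMIs of cluster 8 were in 32, 33 and 34 nuclei in QCM and in 3, 8 and 51 in SCM. In QCM replicate 1 this was close to the 30 nuclei of Apoa4, and in SCM replicate 2, the library with 939 CPM, 1 nucleus held 17.3% of the Mttp UMIs.

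The binding proteins did not separate cluster 8 from cluster 1. Fabp1 was 1.16 to 6.79 times as high in cluster 8 as in clusters 9 to 11 (median 2.39, 5 libraries) and Fabp2 0.721 to 7.62 times (median 1.68, 6 libraries). In cluster 1 the median ratios to clusters 9 to 11 were 1.98 and 1.87, and the highest was 2.65. Between clusters 8 and 1 the median ratio was 1.03 for Fabp1 and 0.963 for Fabp2, each above 1 in 3 of 6 libraries, so no order of the 2 clusters was seen. For Mttp that ratio was 2.83 and for Dgat1 2.13, above 1 in 6 of 6 libraries.

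In cluster 1, the surface apolipoproteins, the binding proteins and Apob (1.28 to 1.57 times) were above cluster 0 in every library compared, and Mttp and Dgat1 were not. Against cluster 0 of the same library, Apoc3 was 2.14 to 4.78 times as high in cluster 1 (5 libraries), Apoa4 1.61 to 2.34 times, Apoa1 1.47 to 2.47 times, Fabp1 1.54 to 4.30 times and Fabp2 1.46 to 2.18 times. Mttp had 0.802 to 1.31 and Dgat1 0.688 to 1.01 times the level of cluster 0. Against clusters 9 to 11, Apoa1 was 0.916 to 4.30 times as high in cluster 1 (median 1.15), Apoa4 0.491 to 1.93 and Apob 0.505 to 1.40 times. The lowest ratios of Apoa4 and Apob came from SCM replicate 3. Cluster 7 was also above cluster 0 in every library compared for Apoa1 (median 2.26, 5 libraries) and Apob (median 3.63, 6 libraries). Apoc3 and Apoa4 are among the genes that lead cluster 1, beside ribosomal pseudogenes, so these ratios only describe the cluster.

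**Figure D3:**
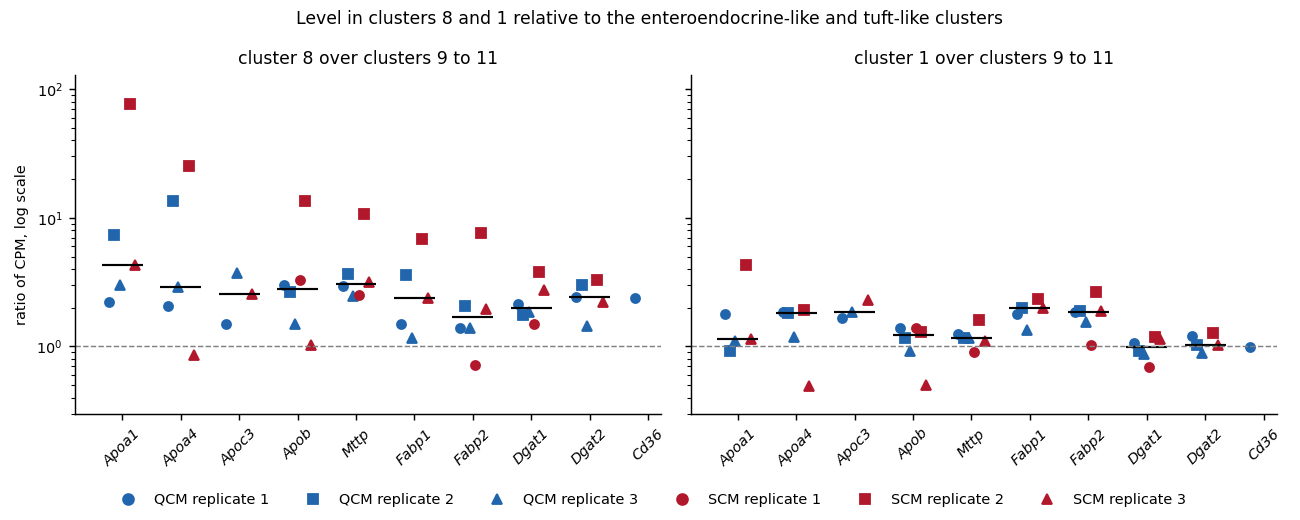
Ratio of CPM in cluster 8 (left) or cluster 1 (right) to clusters 9 to 11 of the same library, on a log axis, for libraries with more than 3 UMIs on both sides, with a line at the median. In cluster 8 the median ratio was 3.05 for Mttp and 1.99 for Dgat1, and in cluster 1 it was 1.17 and 0.989, while Fabp1 and Fabp2 had similar ratios in both clusters.

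Apob, the structural protein of chylomicrons, was the only one of the 10 genes with its highest median in the fetal-like cluster 7. Within libraries, cluster 8 was its highest cluster in 3 and cluster 7 in 2. In cluster 7 Apob had 595, 697 and 533 CPM in QCM and 182, 1238 and 361.5 CPM in SCM. In cluster 8 it had 792, 413 and 264 CPM in QCM and 381, 3543 and 406 CPM in SCM. Relative to clusters 9 to 11, Apob was 0.912 to 4.72 times as high in cluster 7 (median 2.64, above 1 in 5 of 6 libraries) and 1.03 to 13.5 times in cluster 8 (median 2.82, 6 of 6). The lowest ratio of each came from SCM replicate 3, where 1 nucleus of cluster 9 held 295 of that cluster's 458 Apob UMIs and the cluster was at 201 CPM without it. Mttp in cluster 7 was 0.680 to 0.982 times the level of clusters 9 to 11.

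The Apob UMIs of cluster 7 were concentrated in few nuclei. At least 50% of its UMIs were in 2, 3 and 3 nuclei in QCM and in 1, 10 and 6 nuclei in SCM, and 1 nucleus held 48.9% of them in QCM replicate 1 and 71.4% in SCM replicate 1. In cluster 8 they were in 27, 4 and 21 nuclei in QCM and in 3, 5 and 28 in SCM. When the CPM of single nuclei was averaged, Apob was higher in cluster 8 than in cluster 7 in every library but QCM replicate 3 (218 against 239 CPM). After thinning, the median share of nuclei with an Apob UMI was 15.99% in cluster 7, 14.8% in clusters 9 to 11, 17.0% in cluster 1 and 28.9% in cluster 8. SCM replicate 2 stood above this, with 35.2% in cluster 7 and 23.5% in clusters 9 to 11, and with 1143 CPM in cluster 7 without its top nucleus.

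These nuclei were looked at singly. Nuclei with 20 or more Apob UMIs, a limit set after the values were seen, numbered 67 in cluster 7, 42 in cluster 8 and 25 elsewhere. In cluster 7, 42 of the 67 had 0 or 1 Mttp UMI and 50 had 0 or 1 Apoa1 UMI, at a median of 31170 UMIs per nucleus. In cluster 8, 0 of the 42 had so little Mttp and 1 so little Apoa1, at a median of 20620 UMIs.

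The Apob-rich nuclei of cluster 7 carried Clu, which encodes clusterin and was one of the markers that named the cluster, at a median of 25 UMIs, and those of cluster 8 at a median of 0. Median Mttp was 1 UMI in the first set and 22 in the second. SCM replicate 2 supplied 47 of the 67 nuclei of cluster 7 and 16 of the 42 of cluster 8, and QCM replicate 1 supplied 3 and 19. Without both of these libraries, 17 nuclei remained in cluster 7, 11 of them with 0 or 1 Mttp UMI, and 7 in cluster 8, 0 of them with so little.

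**Figure D4:**
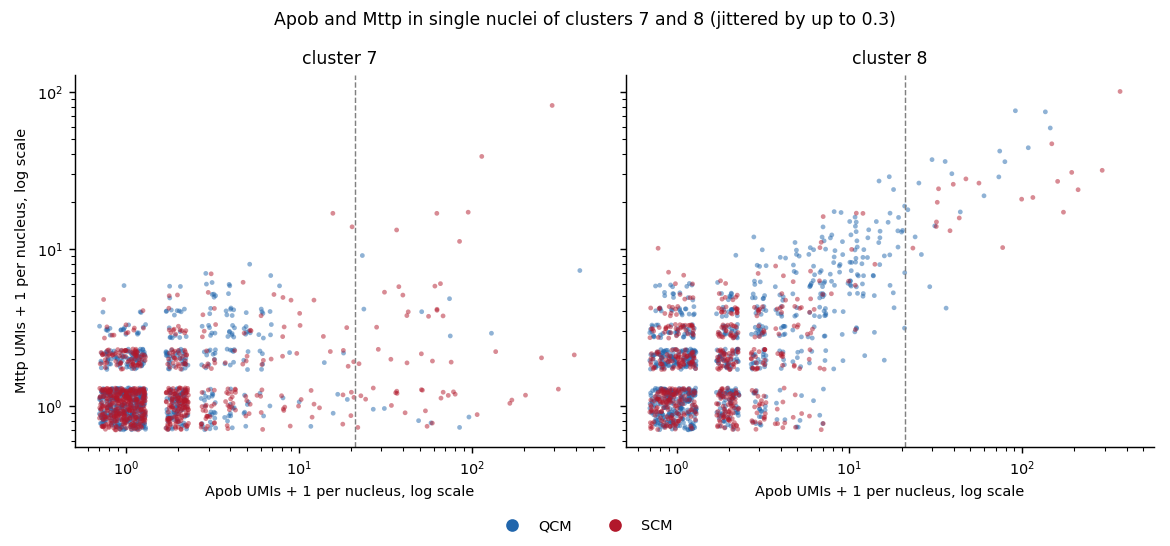
Apob against Mttp UMIs (each plus 1, log axes, points moved by up to 0.3 to show overlap) in single nuclei of clusters 7 and 8, coloured by medium, with a dashed line at 20 Apob UMIs. To the right of the line, 42 of 67 nuclei of cluster 7 had 0 or 1 Mttp UMI and 0 of 42 in cluster 8 did.

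The second question was whether the medium changed these genes. In the edgeR quasi-likelihood test over all nuclei, 0 of 19046 genes passed an adjusted p of 0.05 (0.0%), so 0 of the 10 genes did, with adjusted p from 0.927 to 0.968. DESeq2 called 20 genes and none of the 10. Before adjustment, 866 genes (4.55%) had a p under 0.05, among them 4 of the 10, namely Apoa4, Apoc3, Fabp2 and Dgat1. In sums over all nuclei, fewer cells of a type and less RNA per cell cannot be told apart.

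The estimates were negative, meaning lower in SCM, for 9 of the 10 genes. On the log2 scale, SCM relative to QCM was −2.99 ± 1.17 (SE) for Apoa4, −2.28 ± 1.07 for Apoa1, −3.47 ± 1.22 for Apoc3, −1.97 ± 1.03 for Fabp1 and −1.99 ± 0.73 for Fabp2. It was −0.65 ± 0.30 for Mttp, −0.45 ± 0.18 for Dgat1, −0.36 ± 0.30 for Dgat2, −1.40 ± 0.91 for Cd36 and 0.20 ± 0.50 for Apob. The median over the 10 genes was −1.68, and over all genes tested −0.01.

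Leaving out QCM replicate 1 changed these values. Without it, Apoa1 was at 0.24, Apoa4 at −0.21, Fabp2 at −0.59 and Dgat1 at −0.38, Fabp1 and Apoc3 were lowest at −1.12 ± 1.04 and −1.01 ± 0.69, the median of the 10 was −0.26, and 0 of the 10 had an unadjusted p under 0.05. In replicates 2 and 3 alone the median was −0.15, with Apoa4 at 0.0089 ± 0.46, Apoa1 at 0.47 ± 0.41 and Apob at 1.07 ± 0.40, and 1 of the 10, Apob, had an unadjusted p under 0.05. With the share of ribosomal protein UMIs as a covariate, 7 of the 10 estimates were above 0.

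In the enterocyte-like cluster 8 the test again called 0 of 10011 genes (0.0%; 316 at an unadjusted p under 0.05, or 3.16%; 0 by DESeq2). Of the 9 genes with enough counts, Apoc3 alone had an unadjusted p under 0.05, at a log2 ratio of −2.40 ± 0.76, and the adjusted p was 0.9996 for each. Without QCM replicate 1 Apoc3 was at −1.23 ± 0.63 and in replicates 2 and 3 alone at −1.08 ± 0.59, both with an unadjusted p above 0.05. Cluster 8 held 187, 253 and 395 nuclei in QCM and 11, 77 and 493 in SCM. Apob was at 1.59 ± 0.80, Mttp at 0.30 ± 0.45, Apoa1 at 0.27 ± 0.78, Dgat1 at 0.19 ± 0.25 and Dgat2 at 0.06 ± 0.36, and Apoa4, Fabp1 and Fabp2 were at −0.97 ± 0.73, −0.97 ± 0.72 and −0.76 ± 0.54.

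The high Apob of cluster 8 in SCM came from 1 library. SCM replicate 2 had 3543 CPM, of which 1 nucleus gave 16.8%, and 5 of its 77 nuclei held at least 50% of the Apob UMIs. Without it the log2 ratio of Apob was −0.37, that of Apoa1 −1.47 and that of Mttp −0.44. In that fit 9 of the 10 estimates were negative, with a median of −0.77, and 0 passed. Apoa4 (−2.22 ± 0.72), Apoc3 (−2.38 ± 0.92) and Apoa1 had an unadjusted edgeR p under 0.05, as did 92 of 10788 genes in all. The SCM libraries left included replicate 1, with 11 nuclei. Without QCM replicate 1 instead, 2 of the 10 were negative, so the direction in cluster 8 depended on single libraries. DESeq2 gave no p for Apob in this cluster.

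In cluster 1, with 0 of 12455 genes called (0.0%; 824 at an unadjusted p under 0.05, or 6.62%; 0 by DESeq2), all 9 genes tested had negative estimates and 5 of them an unadjusted p under 0.05. The log2 ratios were −3.03 ± 1.14 for Apoa4, −2.66 ± 1.04 for Apoa1, −2.90 ± 1.02 for Apoc3, −1.99 ± 0.87 for Fabp1 and −1.99 ± 0.68 for Fabp2, with adjusted p from 0.674 to 0.808 over the 9 genes. When no filter on low counts was used these 5 genes passed, with an edgeR adjusted p of at most 0.00276, among 273 of 28372 genes called (0.962%). Under that setting Apob (adjusted p 0.0153) and Apoc3 (8.85e-07) passed in cluster 8, among 77 of 24605 genes called (0.313%). The SEs were smaller than with the filter, at 0.42 against 1.14 for Apoa4 in cluster 1 and 0.36 against 0.80 for Apob in cluster 8. The libraries were the same, so these p-values are not read as a smaller spread between libraries. Without QCM replicate 1, 0 of the 9 had an unadjusted p under 0.05 and their median moved from −1.99 to −0.37. In the fetal-like cluster 7, 8 of the 10 genes were tested, 8 estimates were negative and 6 had an unadjusted p under 0.05. Without QCM replicate 1 there were 2, Fabp2 at −0.88 ± 0.24 and Mttp at −0.60 ± 0.22. With all libraries the smallest edgeR adjusted p of the 8 was 0.339. Apob was at −0.12 ± 0.53 (adjusted p 0.971), with 0 of 10515 genes called (0.0%; 1254, or 11.9%, at an unadjusted p under 0.05; 89 by DESeq2). Of the 8 genes, DESeq2 gave an adjusted p only to Apob and Fabp1, and called neither. With no filter on low counts 5 of the 10 passed, among 440 of 25688 genes called, again with smaller SEs where the filter had kept the gene. The main edgeR test in clusters 0, 2 to 6 and 9 to 12 called 0 genes in each.

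**Figure D5:**
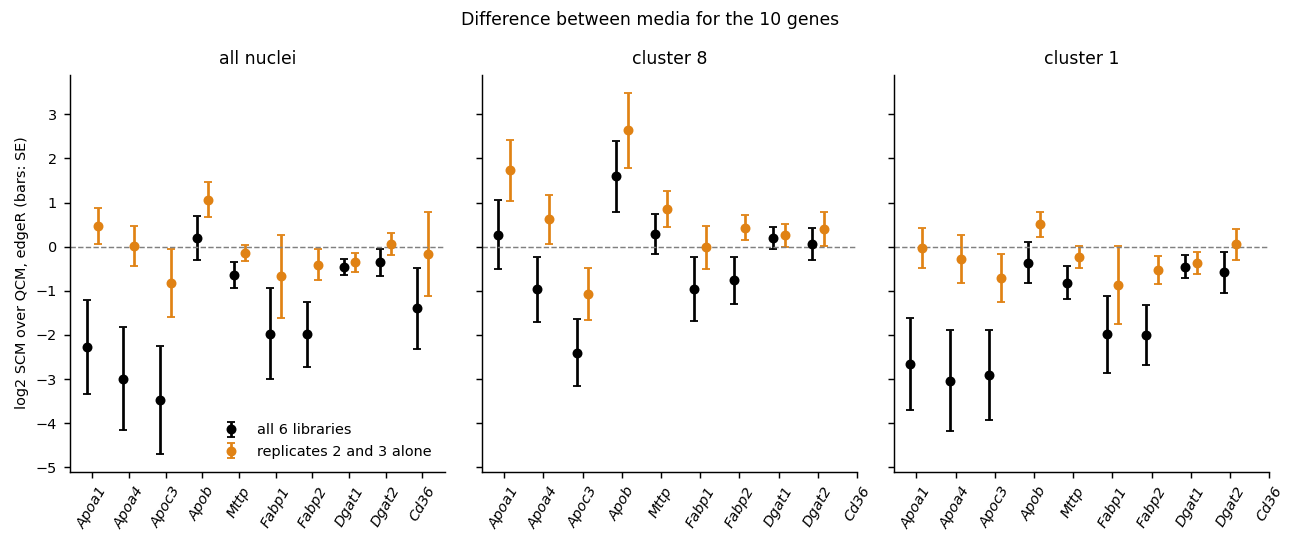
Log2 ratio of SCM to QCM with its SE from edgeR for each gene, over all nuclei and in clusters 8 and 1, with all 6 libraries (black) and with replicates 2 and 3 alone (orange). Apoa4 was at −2.99 over all nuclei with 6 libraries and at 0.0089 with 4, and Cd36 had too few counts for a test in clusters 8 and 1.

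The difference between the clusters was tested directly, as the log2 ratio of SCM to QCM in cluster 8 less that in cluster 1. It was above 0 for all 10 genes, from 0.24 for Apoc3 to 1.73 for Apoa1 in the 9 genes other than Cd36. The estimate for Cd36 rested on 1 to 27 UMIs per library in cluster 8 and 0 to 58 in cluster 1 and is not given. The 10 genes had a median of 0.97 against 0.03 over all genes tested. None of 12167 genes was called (0.0%), the smallest adjusted p of the 10 was 0.482, and 6 of the 10, Cd36 among them, had an unadjusted p under 0.05, against 910 genes in all (7.48%). Mttp was at 1.00 ± 0.32, Apob at 1.30 ± 0.44, Apoa1 at 1.73 ± 0.60 and Dgat1 at 0.68 ± 0.25. With no filter on low counts, edgeR called Apoa1 (adjusted p 0.000676) and Apob (0.00446), among 59 of 29225 genes. The SE of Apoa1 was then 0.32 against 0.60 with the filter, from the same libraries. With the filter but without SCM replicate 2, the median of the 10 fell to 0.40 and 0 of the 10 had an unadjusted p under 0.05. Without QCM replicate 1 instead, the median was 0.69, 4 of the 10 had an unadjusted p under 0.05, and Apoc3 was at −0.48. With library size alone in place of TMM scaling the median of all genes moved to −0.26.

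Other genes of fat handling were read from 5 lists by role, of 54 genes in all. Over all nuclei 50 were tested, 0 passed in either direction and 7 had an unadjusted edgeR p under 0.05, against 4.55% of all genes tested. Of the estimates 38 were negative, with a median of −0.27 against −0.01 over all genes. In cluster 8, 0 of 46 passed, with 30 estimates above 0, and in cluster 1, 0 of 47 passed, with 12 above 0. By role, the medians over all nuclei were −0.22 for uptake and activation, −0.46 for triglyceride synthesis and droplets, −0.52 for chylomicron assembly and other apolipoproteins, −0.25 for cholesterol and −0.11 for regulators and oxidation. In the difference between clusters 8 and 1, 40 of 47 estimates were above 0, with a median of 0.40 against 0.03 over all genes. Of these 47 genes 18 had an unadjusted edgeR p under 0.05, against 7.48% of all genes tested, and 0 passed. The lists are not given here without SCM replicate 2, where 0 of the 10 members had an unadjusted p under 0.05.

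Abundant genes of each list are given as examples. Dbi, the acyl-CoA binding protein, had 1381 ± 687.5 CPM in QCM and 619 ± 343 CPM in SCM, a log2 ratio of −1.36 ± 0.57. Acsl5, which activates fatty acids with coenzyme A, had 189.5 ± 45.5 and 161 ± 48.8 CPM and was 2.06 to 5.90 times as high in cluster 8 as in clusters 9 to 11. P4hb, the partner subunit of Mttp, had 255 ± 75.4 and 150.5 ± 37.3 CPM, and was 1.22 to 3.10 times as high in cluster 8. These differences between media did not pass, with an edgeR adjusted p of 0.927 for Dbi and P4hb and 0.929 for Acsl5.

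For Plin3, a lipid droplet coat protein, the log2 ratio was −0.57 ± 0.31, and for Lpin1, a phosphatidate phosphatase, 0.22 ± 0.17. Mia2, which helps large cargo leave the endoplasmic reticulum, was at 0.06 ± 0.17 and Hmgcs1, an enzyme of cholesterol synthesis, at −0.10 ± 0.30. The transcription factors Hnf4g and Hnf4a were at 0.14 ± 0.21 and −0.10 ± 0.24. Hnf4a was 0.940 to 1.38 times as high in cluster 8 as in clusters 9 to 11, below the range of 2.46 to 10.7 for Mttp.

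The genes whose levels were most like those of Apoa4 and Mttp differed from each other. Over the 70 sums and among 10228 genes with a mean of 10 CPM or more, Apoa4 was most like Rbp2 (r = 0.92), Spink1 (0.91) and Guca2b (0.90), and without QCM replicate 1, over 57 sums, like Rbp2 (0.81), Guca2b (0.80) and Ces2c (0.79). Mttp was most like Sis (0.86), Maoa (0.85) and Acsl5 (0.83), and without that library like Hkdc1 (0.90) and Sis (0.87). The sums share libraries, depth and clusters, and the correlations are a description. Within the 10 genes, Apoa1 and Apoa4 had r = 0.88 (0.71 without QCM replicate 1), and Apob and Fabp1 0.14 (−0.04).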

How the data were processed

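Nuclei of 6 organoid samples, 3 per medium, were profiled by droplet single-nucleus RNA-seq. The authors deposited UMI counts per gene and nucleus, with a cluster number and a mitochondrial fraction for each nucleus. Per the submitters' processing notes, reads were processed with Cell Ranger 2.1.1 on mm10. The filters behind the deposited nuclei were kept as they came, and no doublet caller was run here. Of 31319 genes, 31258 had a symbol, and 0 columns belonged to no sample.

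From these counts, UMIs were summed per library over all nuclei and over each cluster with 10 nuclei or more, and given as CPM. Media were compared with the quasi-likelihood test of edgeR 4.0.16 (R 4.3.3, TMM scaling, filterByExpr with a minimum count of 10, medium as the only term), with Benjamini-Hochberg adjustment over all genes tested and a threshold of 0.05. Nuclei were not treated as replicates. The difference between clusters 8 and 1 was fitted with the library as a term. DESeq2 1.42.0, library size alone, no filter, a replicate block, the ribosomal protein share and leaving out each library were alternatives. The scripts were tested on simulated data. Shares of nuclei have Wilson 95% intervals, which cover counting error only, as do limits for a count of 0 (3 counts). Correlations used log2(CPM + 1) with a pseudocount of 1.

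All 10 genes were described. Of each of 5 pathway lists, the 2 genes with the highest mean CPM were named, and for Apoa4 and Mttp the 3 genes of highest correlation, of which some are not reported here. The genes, lists and tests were chosen with earlier results of these data known.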

Additional observations from a re-analysis of the deposited data

How the results depend on the processing

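Of 448 comparisons of a value under an alternative with its reported value, 390 kept direction and side of the threshold, 12 newly passed the threshold and 46 changed sign. These 12 include values beyond the members named below in the fits without a filter, and those are not named here. DESeq2 called 20 genes over all nuclei and 89 in cluster 7. Without a filter on low counts, edgeR called 77 of 24605 genes in cluster 8 (Apob and Apoc3 among them). It called 273 of 28372 in cluster 1 (Fabp1, Fabp2, Apoa1, Apoc3 and Apoa4 among them) and 440 of 25688 in cluster 7 (the same 5 members). In the difference between clusters 8 and 1 it called 59 of 29225 (Apob and Apoa1 among them). Under this setting Dgat2 in cluster 8 was at −0.0094. The members it called had smaller SEs than with the filter wherever both were fitted. Library size alone called 1 gene in cluster 7, moved Apob there to 0.0011 and Apoc3 in the difference to −0.14, and moved the median of all genes over all nuclei from −0.01 to 0.14.

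The labels do not say that a replicate number marks a shared batch or animal. Deviations of same-numbered samples correlated at 0.36, 0.46 and −0.09 over 19046 genes for numbers 1, 2 and 3. Those of differently numbered samples correlated at −0.46 to 0.16. By this measure numbers 1 and 2 were the highest pairs and number 3 was not, and the main test did not assume pairing. Median mitochondrial percent rose with the number in both media, at 1.005, 1.828 and 3.715 in QCM and 0.803, 2.206 and 3.544 in SCM. Both replicate 1 libraries also had 48 barcode starts. Whether a number marks a shared batch or animal was not tested. Over all nuclei, the CPM of Apoc3, Fabp1, Fabp2, Mttp and Dgat1 was lower in SCM within every number. That of Apoa1, Apoa4, Apob, Dgat2 and Cd36 was higher in SCM for number 2. With a replicate block, 0 genes were called over all nuclei and in clusters 8 and 1, and 1 in cluster 7, and Apoa1 in cluster 8 was at −0.011.

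With each library's share of ribosomal protein UMIs added to the model, all-nuclei log2 ratios were 1.07 for Apoa1, 0.83 for Apoa4, 0.31 for Apoc3, 0.38 for Fabp1, 0.045 for Dgat2 and 0.92 for Cd36. In cluster 8 they were 0.18 for Apoa4, 0.24 for Fabp1 and 0.15 for Fabp2, and in cluster 1 they were 1.11 for Apoa1, 1.11 for Apoa4, 0.20 for Apoc3, 0.43 for Apob, 0.38 for Fabp1 and 0.092 for Dgat2. The cause was not tested.

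Some alternatives were chosen after seeing the data: replicates 2 and 3 alone, all those for cluster 7, and leaving out the barcodes that SCM replicate 1 shared with QCM replicate 1, which changed no direction (Apoa4 −2.97). Replicates 2 and 3 alone gave, over all nuclei, 0.47 for Apoa1, 0.0089 for Apoa4 and 0.057 for Dgat2, in cluster 8 0.62 for Apoa4 and 0.43 for Fabp2, in cluster 1 0.51 for Apob and 0.052 for Dgat2, and in cluster 7 0.31 for Apob.

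Leaving out each library in turn, the difference between clusters called 0 to 68 genes (30 without QCM replicate 2, 3 without SCM replicate 2, 68 without SCM replicate 3). Over all nuclei Apoa1 ran from −2.80 to 0.24, Apob from −0.37 to 0.85 and Dgat2 from −0.57 to 0.0031. In cluster 8 Apoa1 ran from −1.47 to 1.31, Apoa4 from −2.22 to 0.31, Apob from −0.37 to 2.20, Mttp from −0.44 to 0.63, Fabp2 from −1.26 to 0.16 and Dgat2 from −0.43 to 0.36. Apob ran from −0.74 to 0.35 in cluster 1 and from −1.23 to 0.26 in cluster 7. In the difference, Apoa4 ran from −0.35 to 1.98 and Apoc3 from −0.48 to 0.51. Depth limited Cd36 most, with 3 UMIs in SCM replicate 1.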
